A study of Mus musculus with 8 samples.

Results

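Lipolysis, the release of stored fat from adipocytes, was followed through a list of 7 genes, Pnpla2, Lipe, Mgll, Abhd5, G0s2, Pde3b and Adrb3. The annotation of the array used here named a probe set for 6 of them, among 18194 named genes in all. It named none for Adrb3, the beta-adrenergic receptor of rodent adipocytes, which was not analysed here. Where a gene had several probe sets, the one with the highest mean over the 8 arrays stood for it and the rest served as a check. Expression had been measured on Affymetrix Mouse Genome 430 2.0 arrays in 3T3-L1 adipocytes, fat cells grown in culture from a line of mouse fibroblasts, under 3 models of insulin resistance. The cells of 2 arrays had been kept in chronic insulin (CI), those of 3 arrays had received the inflammatory cytokine TNF, and those of 3 arrays the synthetic glucocorticoid dexamethasone (Dex). All 8 samples had also received MnTBAP, an antioxidant, over the final 6 hours, and neither cells without it nor untreated cells were analysed here. Every difference below is therefore between models that share the antioxidant, and a lower value in TNF or Dex can equally be a higher value under chronic insulin. Nothing in the labels says whether arrays of a model stem from separate cultures, and the spread behind each p-value may thus be technical.

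A triglyceride is taken apart in steps. Adipose triglyceride lipase, the product of Pnpla2, removes the first fatty acid, hormone-sensitive lipase (Lipe) the next, and monoacylglycerol lipase (Mgll) releases the last fatty acid from glycerol. The first step is switched on by the co-activator encoded by Abhd5 (CGI-58) and held back by the inhibitor encoded by G0s2, both of which bind the lipase itself. Adrenergic receptors raise cyclic AMP, protein kinase A then phosphorylates hormone-sensitive lipase and the droplet coat, and insulin opposes this partly through the phosphodiesterase encoded by Pde3b, which destroys cyclic AMP. Messenger RNA was measured here, and neither the proteins nor the release of fatty acids or glycerol.

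RefSeq promoter windows, from 250 bases before to 50 after an annotated start on GRCm38.p6, were found for 5 of the 7 genes. Windows of 3 genes are shown because Mgll and G0s2 were lower in both TNF and Dex than in CI, while Pnpla2 was higher in Dex. Capitals mark matches, on either strand, to any of 7 motifs. These were the glucocorticoid receptor palindrome (AGAACA and TGTTCT with 3 bases between them) and its single site AGAACA, which the palindrome contains, the FOXO motif GTAAACA, the PPAR direct repeat (AGGTCA and AGGTCA with 1 base between them), the NF-kB motif (GGG and TTTCC with 2 bases between them), the cyclic AMP response element TGACGTCA and the E-box CACGTG.
Pnpla2, chr7:141454938-141455237, plus strand: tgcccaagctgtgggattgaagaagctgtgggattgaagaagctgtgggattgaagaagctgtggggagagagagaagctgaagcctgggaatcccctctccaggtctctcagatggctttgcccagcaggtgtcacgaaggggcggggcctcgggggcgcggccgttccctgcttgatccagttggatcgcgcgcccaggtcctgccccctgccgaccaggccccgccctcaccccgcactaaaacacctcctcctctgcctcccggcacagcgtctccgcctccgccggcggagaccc
Mgll, chr6:88724162-88724461, plus strand: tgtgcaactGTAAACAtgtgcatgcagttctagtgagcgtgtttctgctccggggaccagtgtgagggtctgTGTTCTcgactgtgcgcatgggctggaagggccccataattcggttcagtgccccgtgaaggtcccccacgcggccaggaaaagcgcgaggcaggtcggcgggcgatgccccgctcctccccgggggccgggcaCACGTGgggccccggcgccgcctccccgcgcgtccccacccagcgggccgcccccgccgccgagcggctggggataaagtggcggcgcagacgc
G0s2, chr1:193273139-193273438, minus strand: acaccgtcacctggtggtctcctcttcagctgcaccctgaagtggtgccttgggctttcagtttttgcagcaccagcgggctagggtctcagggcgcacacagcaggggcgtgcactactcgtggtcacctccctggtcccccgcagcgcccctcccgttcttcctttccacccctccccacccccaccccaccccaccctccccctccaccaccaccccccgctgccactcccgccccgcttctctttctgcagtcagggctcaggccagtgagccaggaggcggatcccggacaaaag
The Mgll window shown held a FOXO match beginning 241 bases before the start, a glucocorticoid single site on the opposite strand beginning 178 bases before it and an E-box beginning 44 bases before it. Neither the Pnpla2 nor the G0s2 window held letters of any of the 7 motifs. Among the 32851 windows of this length, 3.65% held the FOXO motif, 19% the single site and 7.15% the E-box. A further window of Mgll, from a start downstream, and the window of Abhd5 held none of the motifs. Of the 2 windows of Lipe, one held a FOXO match on the opposite strand, beginning 119 bases before the start, and the other an E-box beginning 155 bases before it. A match is a description of the letters and not of a site in use, and the start used by these cells was not measured.

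The arrays were close in level, with median intensities from 124.7 to 130.97 and a Pearson's r across probe sets of 0.9958 to 0.9978 between arrays of a model. Adipoq and Fabp4, which mark adipocytes, averaged between 14.31 and 14.44 on the log2 scale in every model, near the top of the range, although the labels also call the tissue preadipocytes. Of 8 adipocyte markers 6 were measured, and their summed intensity was 78060 to 78966 in the CI arrays, 61256 to 63886 in TNF and 77023 to 79303 in Dex. Among them Cidec, Retn, Pparg and Lep were called lower in TNF than in CI, and Pparg and Lep also in Dex. Of 8 preadipocyte and fibroblast markers 7 were measured, and their summed intensity was 31559 to 33231 in CI, 31966 to 36520 in TNF and 15404 to 18333 in Dex. Dlk1 (log2 difference -0.70), Col1a1 (-1.14) and Col3a1 (-1.29) were called lower in Dex than in CI. The rest were not called, with Thy1 at -0.42, Pdgfrb at -0.41, Cd34 at -0.13 and Pdgfra at -0.02. Of these, Thy1 and Pdgfrb did not overlap between Dex and CI. In TNF only Pdgfrb was called against CI, higher by 0.93. All 8 macrophage and leukocyte markers were measured, with sums of 2356 to 2367, 3535 to 3762 and 2314 to 2394. Ptprc, which marks all leukocytes, lay at 4.60 to 4.66 on average. Lyz2 (log2 difference 0.55) and Cd14 (1.44) were called higher in TNF than in CI. In Dex, Cd14 was called higher than in CI (0.98), while Lyz2 differed by -0.40, not called. No other gene of this list was called against CI. Each sum gives more weight to brighter genes. The lower adipocyte sum in TNF did not come from its brightest genes, Fabp4 and Adipoq, which differed from CI by 0.02 and -0.05. The difference of the 3′ and 5′ probe sets of beta-actin, a sign of RNA quality, ran from 0.49 to 0.83 and was at least 0.71 in every TNF array and in Dex replicate 3. The part of these shifts in the values below was not tested, apart from a fit with the beta-actin difference as a covariate. In bulk RNA, fewer cells of a type and less RNA per cell cannot be told apart. Levels below are log2 intensities as mean ± SD, differences are on the same scale with the standard error (SE) of a limma fit over all 8 arrays, and a called gene had an adjusted p under 0.05 together with a difference above 0.5. For scale, 11 genes typical of other organs averaged between 3.75 and 8.03, and the median gene lay at 7.92.

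Counted over the list, 4 of the 6 measured genes were lower in TNF than in CI and none was higher, against 5.23% of all genes lower, 3.00% higher and 8.22% called in either direction. Pnpla2 alone had a positive difference, with an unadjusted limma p of 0.436. The summed adipocyte markers were lower in the same TNF arrays, and their part in this count was not tested. Of these markers 4 were called lower, among them Cidec, which is also in the droplet list below. Adipoq (-0.05) and Fabp4 (0.02) were not called. Of the same 6, 2 were lower and 1 higher in Dex than in CI, against 5.67% of all genes lower, 3.33% higher and 9.00% called. In TNF relative to Dex, 2 were lower and 1 higher, against 3.16% lower, 4.14% higher and 7.30% called. The median difference of the 6 genes was -0.69 between TNF and CI (0.03 over all genes), -0.28 between Dex and CI (0.02) and -0.33 between TNF and Dex (0.01). The comparisons share arrays and so are not independent of each other. Groups did not overlap for 5 of the 6 genes in each comparison, against 53.0%, 48.0% and 35.9% of all genes in that order. Mgll and G0s2 were called lower against CI in both other models.

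**Figure D1:**
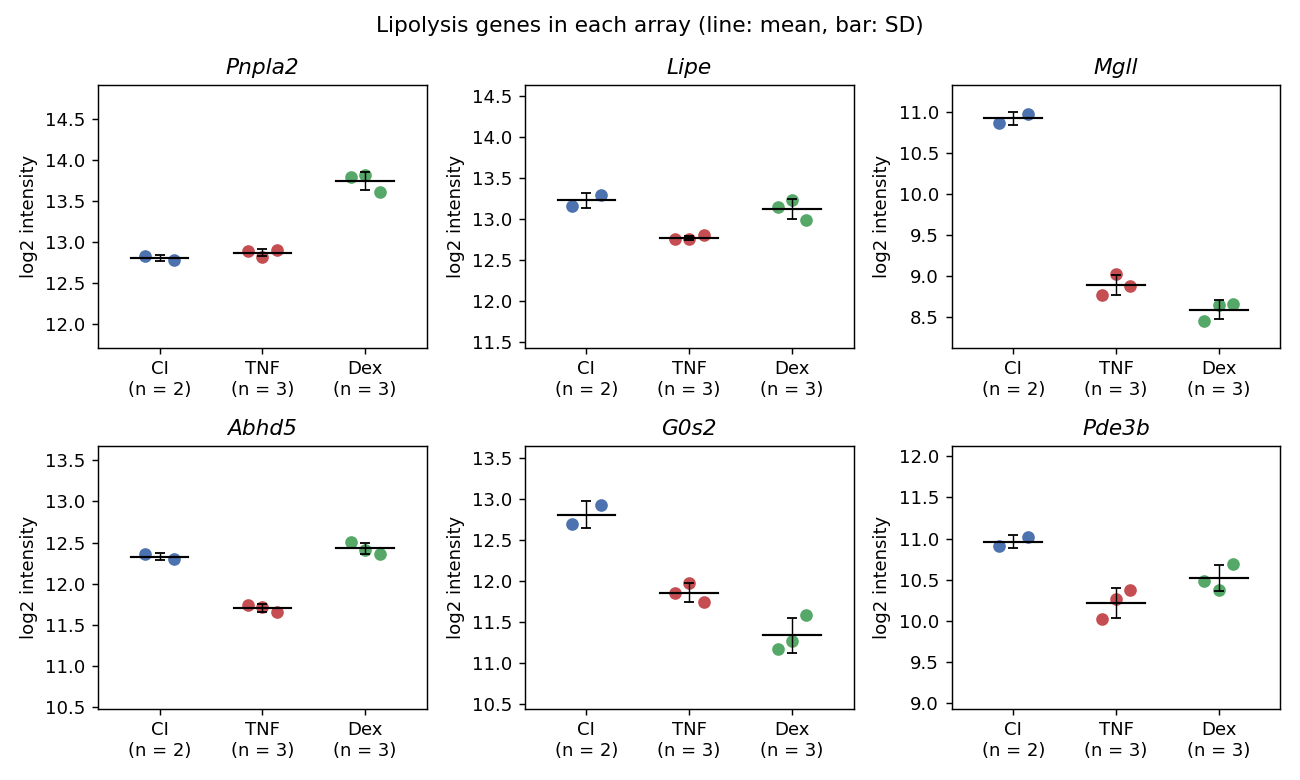
Log2 intensity (vertical axis, each panel spanning the same height) of 6 lipolysis genes in each array of CI, TNF and Dex, with the mean (line) and SD (bar). Pnpla2 was highest in the 3 Dex arrays (13.61 to 13.82), Abhd5 lowest in the 3 TNF arrays (11.65 to 11.74), and Mgll and G0s2 highest in the 2 CI arrays.

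Pnpla2, whose lipase starts the breakdown, differed in the Dex model. It lay at 12.83 and 12.78 in the CI arrays, at 12.89, 12.82 and 12.90 in TNF and at 13.79, 13.82 and 13.61 in Dex. All Dex arrays lay above all others, and the CI and TNF arrays overlapped. The gene was 1.92-fold higher in Dex than in CI (0.94 ± 0.08, limma adjusted p = 1.05e-05) and 1.83-fold lower in TNF than in Dex (-0.87 ± 0.07, limma adjusted p = 8.04e-06). Between TNF and CI the difference was 0.07, with a 95% interval of -0.11 to 0.24. Its intensities in Dex, 12531 to 14462, were high, with the largest intensity of any Dex array at 23857. Differences can be compressed at high intensities. A dimmer probe set of the gene, at 7.62 in CI and 8.15 in Dex on average, gave 0.53 ± 0.10 between Dex and CI and -0.76 ± 0.09 between TNF and Dex, both called. It differed by -0.23 ± 0.10 between TNF and CI, not called, and its levels in CI and TNF were within the range of the genes of other organs.

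Lipe, which encodes the hormone-sensitive lipase of the next step, passed the size threshold in no comparison. Its values were 13.16 and 13.29 in CI, 13.14, 13.23 and 12.99 in Dex and 12.75, 12.75 and 12.80 in TNF. The TNF arrays lay below all others, whereas those of CI and Dex overlapped. TNF differed from CI by -0.46 ± 0.09 (limma adjusted p = 0.00292) and from Dex by -0.35 ± 0.08 (limma adjusted p = 0.00645), and Dex from CI by -0.10, with a 95% interval of -0.29 to 0.08. The difference between TNF and CI was called without CI replicate 1 (-0.53) and with each array centred on its median (-0.51). The other probe set of Lipe lay at 5.43 to 5.56 on average, within the range of the genes of other organs, and was called nowhere.

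Mgll, whose product frees the last fatty acid, had the largest differences of the 6 genes against CI. It lay at 10.86 and 10.97 in CI, against 8.77, 9.02 and 8.88 in TNF, and at 8.45, 8.64 and 8.66 in Dex. No groups overlapped, and CI stood far above both other models. The level was 4.08-fold lower in TNF than in CI (-2.03 ± 0.10, limma adjusted p = 2.72e-07) and 5.03-fold lower in Dex than in CI (-2.33 ± 0.10, limma adjusted p = 5.28e-08). TNF and Dex differed from each other by 0.30 ± 0.09 (limma adjusted p = 0.0274), below the size threshold. Mgll is the only member with 4 probe sets. Of the other 3, one gave -1.69 ± 0.10 and -1.96 ± 0.10 for TNF and Dex against CI, and another gave -1.95 ± 0.08 and -2.25 ± 0.08, all called. In Dex the former, at 7.88 on average, was within the range of the genes of other organs, and the latter was in TNF and Dex. The last and dimmest (6.63 to 6.74 on average) lay within the range of the genes of other organs and was called in no comparison.

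**Figure D2:**
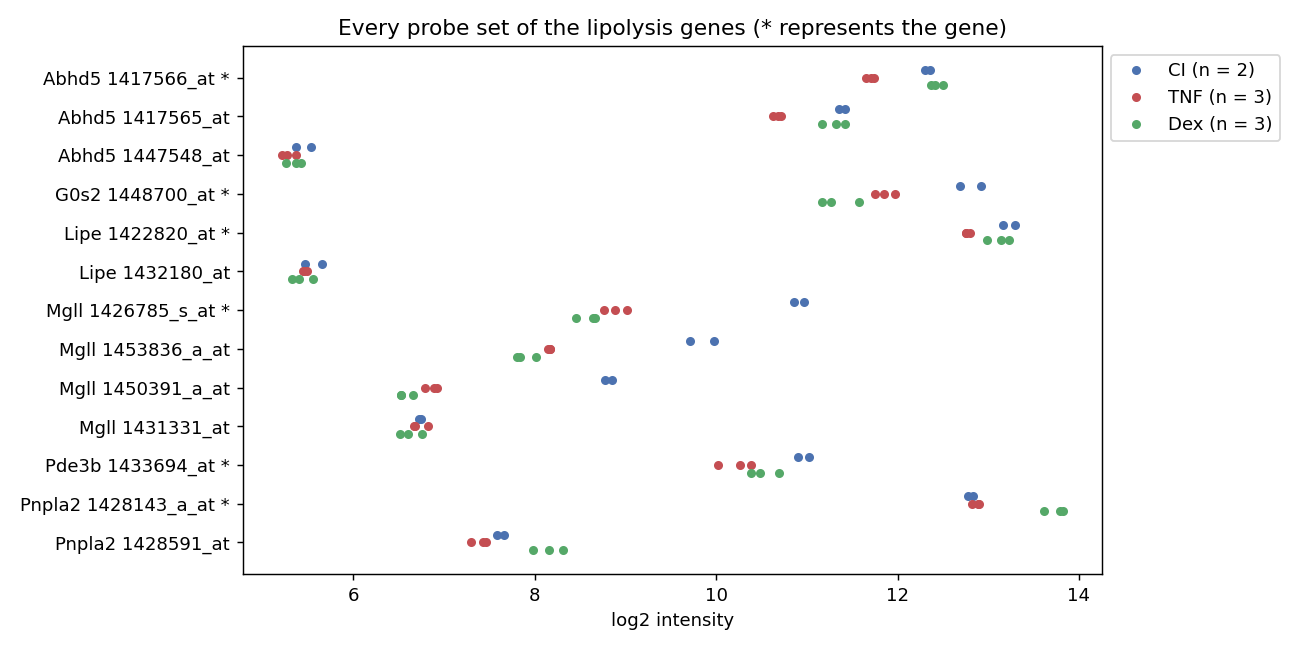
Log2 intensity (horizontal axis) of every named probe set of the 6 genes, with a point for each array coloured by model and an asterisk at the probe set that represents the gene. The 3 brighter probe sets of Mgll were highest in the CI arrays, and probe sets near 5.3 to 6.7 of Abhd5, Lipe and Mgll did not separate the models.

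The regulators of the first lipase were ordered differently across the models. Abhd5, its co-activator, lay at 12.36 and 12.30 in CI, 12.51, 12.41 and 12.36 in Dex and 11.74, 11.71 and 11.65 in TNF. The TNF arrays lay below all others, 1.54-fold lower than CI (-0.63 ± 0.07, limma adjusted p = 0.000175) and 1.65-fold lower than Dex (-0.73 ± 0.07, limma adjusted p = 1.63e-05). CI and Dex lay close, with a difference of 0.10 and a 95% interval of -0.06 to 0.26. A further probe set of Abhd5 gave -0.71 ± 0.09 and -0.63 ± 0.08 for TNF against CI and Dex, both called. A dim one at 5.35 on average was called nowhere, and averaging it with the others brought TNF against Dex to -0.47.

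G0s2, the inhibitor, followed another order, highest in CI, intermediate in TNF and lowest in Dex. It lay at 12.69 and 12.92 in CI, against 11.85, 11.97 and 11.75 in TNF, and at 11.17, 11.27 and 11.58 in Dex. The groups did not overlap in any comparison, although Dex replicate 3 came near TNF replicate 3. G0s2 was 1.93-fold lower in TNF than in CI (-0.95 ± 0.12, limma adjusted p = 0.000315) and 2.77-fold lower in Dex than in CI (-1.47 ± 0.12, limma adjusted p = 8.12e-06). TNF was above Dex by 0.52 ± 0.11 (limma adjusted p = 0.00575), just past the size threshold. That call was lost without TNF replicate 2 (0.46), Dex replicate 1 (0.43) or Dex replicate 2 (0.49), with each array centred on its median (0.49), and with the beta-actin difference as a covariate (0.41, limma adjusted p = 0.114). A single probe set represents this gene.

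The lipase and its inhibitor were then followed within each array, as log2 Pnpla2 minus log2 G0s2 relative to its mean in CI. The value was 0.14 and -0.14 in the CI arrays, 1.04, 0.85 and 1.16 in those of TNF and 2.63, 2.55 and 2.04 in those of Dex. The models did not overlap, with means of 1.01 ± 0.15 in TNF and 2.41 ± 0.32 in Dex (SD, n = 3). In TNF, Pnpla2 contributed 0.07 and G0s2 the rest, while in Dex the lower G0s2 contributed more than the higher Pnpla2, whose part was 0.94. The value is a description of the 2 genes given above and was not tested by itself.

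**Figure D3:**
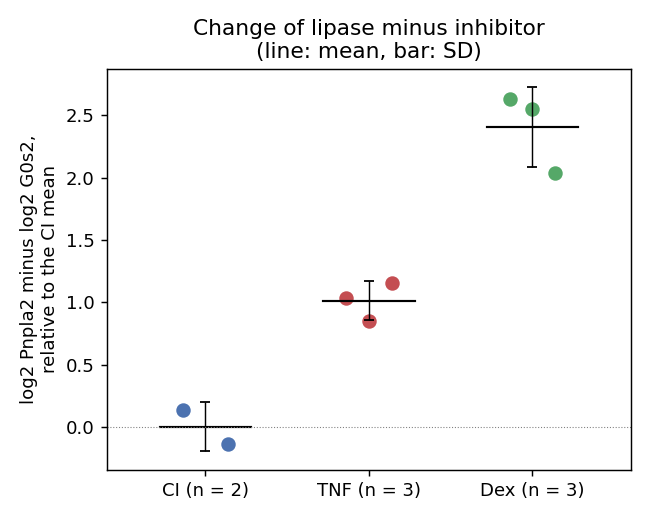
Log2 Pnpla2 minus log2 G0s2 in each array, relative to the CI mean (vertical axis), with the mean (line) and SD (bar) of each model. TNF arrays lay between 0.85 and 1.16 and Dex arrays between 2.04 and 2.63, above both CI arrays.

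Pde3b, through whose product insulin lowers cyclic AMP, was highest in CI as well. It lay at 10.91 and 11.02 in CI, 10.48, 10.38 and 10.69 in Dex and 10.02, 10.26 and 10.38 in TNF. Both CI arrays were above all others, and Dex and TNF met at 10.38. The gene was 1.68-fold lower in TNF than in CI (-0.75 ± 0.12, limma adjusted p = 0.00101). Dex differed from CI by -0.45 ± 0.12 (limma adjusted p = 0.0174), under the size threshold, and was called without Dex replicate 3 (-0.53). TNF and Dex differed by -0.30 ± 0.10, which did not pass (limma adjusted p = 0.0673).

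**Figure D4:**
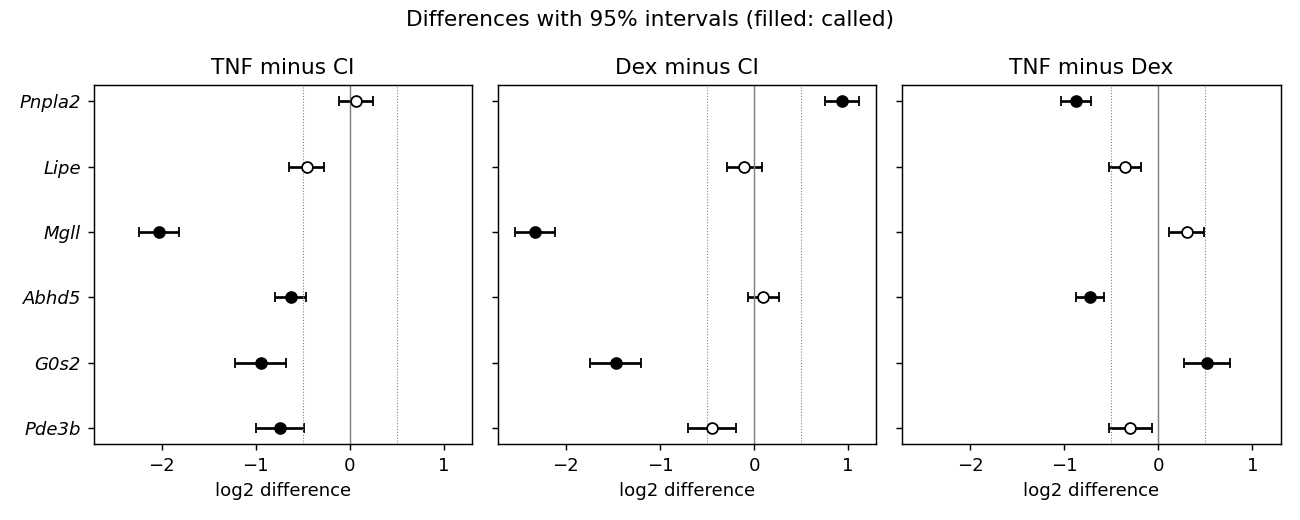
Log2 difference (horizontal axis) of each of 6 genes in 3 comparisons with its 95% interval, filled where called, with dotted lines at the size threshold of 0.5. Mgll lay at -2.03 and -2.33 against CI, and Pnpla2 was the only gene called higher against CI, at 0.94 in Dex.

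The genes most like each called member were found by the root mean square difference of centred log2 values over the 8 arrays, among genes at or above the median level. Values were not scaled to equal spread, so genes with larger differences, such as Mgll and G0s2, can lie farther from others. For Pnpla2 these were Coq8a (0.06), Glul (0.06) and Nampt (0.08), and for Abhd5 Dlat (0.06), Ptcd1 (0.07) and Acadvl (0.07). Coq7 (0.06), Gpr155 (0.06) and Comtd1 (0.07) came nearest to Pde3b. The nearest genes were less close for G0s2, with Cyp51 (0.14), Aqp7 (0.15) and 4930579G24Rik (0.15), and for Mgll, with Lrrc17 (0.18), Car2 (0.23) and Alcam (0.23). Glul, which makes glutamine, averaged 11.92 in CI, 11.86 in TNF and 12.73 in Dex. Acadvl, a dehydrogenase of fatty acid oxidation, averaged 12.14, 11.45 and 12.18 in the same order. Among the 6 members themselves, Abhd5 and Lipe were the closest pair (0.18), and Mgll and Pnpla2 the farthest apart (1.27).

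The wider pathway was read from 8 lists of receptors, signalling proteins, droplet proteins and enzymes. Of 64 listed genes 59 were measured, and 5, among them Plin1, had no named probe set and were not analysed here. Against CI, 3 were higher and 10 lower in TNF, where 3.00% and 5.23% of all genes were. In Dex 5 were higher and 10 lower than in CI, against 3.33% and 5.67% of all genes. Between TNF and Dex, 3 were higher and 3 lower in TNF, against 4.14% and 3.16%. Their median differences were -0.02, -0.03 and 0.04, near those of all genes. None of 11 G proteins and adenylyl cyclases, which make cyclic AMP or control its making, was called by limma in any comparison. Their differences ran from -0.29 to 0.21. At an unadjusted limma p under 0.05 they numbered 4 between TNF and CI, 0 between Dex and CI and 4 between TNF and Dex. The share of all genes at that looser threshold was not counted, so these numbers do not set this list apart from other genes. Of 8 genes of protein kinase A and its partners 1 was called against CI in each model. Prkar2b, the main regulatory subunit of fat cells, was lower in TNF (-0.59 ± 0.08), and Pkia, a kinase inhibitor, was lower in Dex (-0.65 ± 0.11). Pkia averaged 7.88 in Dex, within the range of the genes of other organs.

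Of 6 measured receptors that restrain lipolysis, 2 were lower in TNF than in CI, and 3 were lower and 1 higher in Dex. Over all genes the shares were 5.23%, 5.67% and 3.33% in that order. Hcar2, the niacin receptor, lay at 9.61 and 9.68 in CI, against 8.40, 8.24 and 8.16 in TNF, and at 7.99, 8.15 and 8.28 in Dex. Both CI arrays lay above all others, with Hcar2 2.59-fold lower in TNF and 2.83-fold lower in Dex. Hcar1, through which lactate restrains lipolysis, lay at 8.61 in both CI arrays, 7.61, 7.43 and 7.52 in TNF and 7.14, 6.95 and 6.51 in Dex. In TNF and Dex it was within the range of the genes of other organs, so the size of its differences (-1.09 ± 0.15 and -1.74 ± 0.15) is uncertain. It was higher in TNF than in Dex by 0.65 ± 0.13, a call that was lost without Dex replicate 3 (0.47). Npr3, a natriuretic peptide clearance receptor, was lower in Dex (-0.83 ± 0.22), but not called without CI replicate 1 (limma adjusted p = 0.118) or CI replicate 2 (limma adjusted p = 0.0719). The insulin receptor Insr was higher in Dex by 0.60 ± 0.09 and differed by 0.23 ± 0.09 in TNF, which did not pass. Averaging its 3 probe sets left 0.05 for Dex.

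Of 5 measured receptors that stimulate lipolysis, 1 was higher and 1 lower in TNF than in CI, against 3.00% and 5.23% of all genes. Mc2r, the receptor for adrenocorticotropic hormone, lay at 9.94 and 9.81 in CI, against 10.85, 10.63 and 10.77 in TNF, and at 10.37, 10.25 and 10.35 in Dex. TNF was above CI by 0.87 ± 0.09, and Dex above CI by 0.45 ± 0.09, under the size threshold except without CI replicate 1 (0.51). Tshr, the thyrotropin receptor, was lower in Dex (-0.77 ± 0.08) and in TNF (-0.54 ± 0.08), the latter not called without CI replicate 1 (-0.46) or after quantile normalization (-0.49). Its mean in Dex, 7.90, was within the range of the genes of other organs. Of the 8 other phosphodiesterases, Pde4b, which also destroys cyclic AMP, was lower than in CI in both TNF (-0.93 ± 0.15) and Dex (-1.47 ± 0.15). It lay at 9.80 and 9.90 in CI, against 9.28, 8.67 and 8.81 in TNF, and at 8.41, 8.28 and 8.44 in Dex. TNF was above Dex by 0.54 ± 0.13, which was lost without TNF replicate 1 (0.36) or Dex replicate 2 (0.49), and with the beta-actin difference as a covariate (0.52). Averaging its 6 probe sets brought the difference of TNF and CI to -0.37 and that of TNF and Dex to 0.17, neither called. With array weights the difference of TNF and Dex was 0.47, also not called. Pde7a was lower in Dex (-0.51 ± 0.12), at the edge of the threshold, and averaged 7.82 there, within the range of the genes of other organs. That call was lost without CI replicate 2 (-0.38), Dex replicate 2 (-0.46) or Dex replicate 3 (-0.49), or with its 7 probe sets averaged (-0.02).

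**Figure D5:**
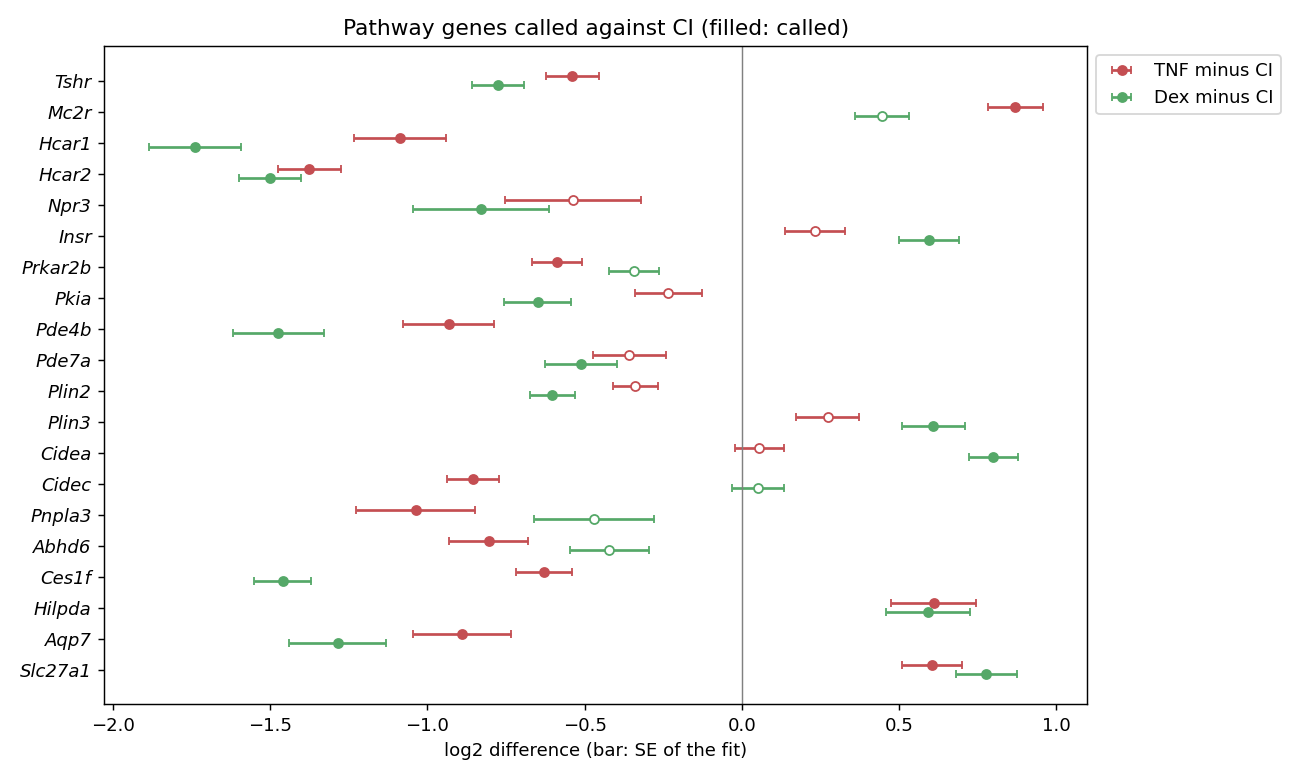
Log2 difference against CI (horizontal axis) of the 20 pathway genes called in TNF or Dex, with the SE of the fit as bars and filled points where called. Tshr, Hcar1, Hcar2, Pde4b, Ces1f and Aqp7 were called lower in both models, and Hilpda and Slc27a1 higher in both. Cidec was lower in TNF at -0.85 against 0.05 in Dex.

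Of 6 measured droplet proteins that gate the access of lipases, 1 was lower in TNF than in CI, 2 were higher and 1 lower in Dex than in CI, and 2 were lower in TNF than in Dex. The shares of all genes were 5.23%, 3.33%, 5.67% and 3.16% in that order. Of these droplet proteins, 2 were called in no comparison. Cidec, which enlarges lipid droplets, lay at 13.87 and 13.86 in CI, 13.95, 13.97 and 13.82 in Dex and 12.96, 13.12 and 12.94 in TNF. It was lower in TNF than in CI (-0.85 ± 0.08) and than in Dex (-0.91 ± 0.07), the order also seen for Abhd5. Cidea differed between Dex and CI by 0.80 ± 0.08, called higher, at levels of 6.62 to 7.54, within the range of the genes of other organs. The coat protein genes Plin2 (-0.60 ± 0.07) and Plin3 (0.61 ± 0.10) were called in opposite directions in Dex. Hilpda, whose product inhibits the lipase of Pnpla2, was higher in TNF by 0.61 ± 0.13 and in Dex by 0.59 ± 0.13, opposite to G0s2. Neither call held without CI replicate 1 (0.54 and 0.52, limma adjusted p = 0.0681 and 0.0811), and that of TNF was also lost without TNF replicate 2 (0.48).

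Among 10 other lipases and lipase regulators, 1 was higher and 3 lower in TNF than in CI, and 1 higher and 1 lower in Dex. For all genes these shares were 3.00%, 5.23%, 3.33% and 5.67% in that order. Ces1f, a carboxylesterase, lay at 11.61 and 11.70 in CI, against 11.02, 10.98 and 11.08 in TNF, and at 10.25, 10.03 and 10.30 in Dex. No groups overlapped, and Ces1f was lower in TNF (-0.63 ± 0.09) and in Dex (-1.46 ± 0.09) than in CI, the order of models also seen for G0s2. Pnpla3, a close relative of Pnpla2, was lower in TNF than in CI (-1.04 ± 0.19), with TNF replicate 1 at 9.58 against 10.30 and 10.32 in the other TNF arrays. It was lower in TNF than in Dex (-0.57 ± 0.17), a call lost without any 1 of CI replicate 1, CI replicate 2, TNF replicate 1 (-0.33), Dex replicate 1, Dex replicate 2 and Dex replicate 3 (-0.46). Abhd6, which like Mgll acts on monoacylglycerol, was lower in TNF (-0.80 ± 0.13), but not called at -0.50 with its 2 probe sets averaged. Of 5 genes that handle the products, Aqp7, the channel through which glycerol leaves the cell, lay at 9.57 and 9.60 in CI, against 8.50, 8.87 and 8.72 in TNF, and at 7.96, 8.38 and 8.56 in Dex. It was lower in TNF (-0.89 ± 0.16) and in Dex (-1.29 ± 0.16). Slc27a1, a fatty acid transporter, was higher by 0.61 ± 0.10 in TNF and 0.78 ± 0.10 in Dex, and the other 3 genes of this list were called in no comparison. In each model, 1 gene of this list was thus lower and 1 higher than in CI. Over all genes the shares were 5.23% and 3.00% in TNF and 5.67% and 3.33% in Dex.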

How the data were processed

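RNA of 8 samples was hybridised as biotin-labelled cRNA to Affymetrix arrays of 45101 probe sets. The deposited intensity values, on a linear scale, had been background corrected and normalized by the authors, whose methods name RMA in affyPLM. The sources used here do not say whether they were scaled further, and their log2 was taken with no pseudocount. Groups came from the sample titles. Symbols came from the platform annotation of GEO, where 34958 probe sets with 1 symbol gave 18194 genes. The 3 models were fitted together with limma 3.58.1 in R 4.3.3, by its moderated test (two-sided), with p-values adjusted across the 18194 genes after Benjamini-Hochberg. The thresholds for a call were an adjusted p of 0.05 and a difference of 0.5, as in the study's methods. The fit was tested on simulated data.

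The members, the pathway lists and the rule for named genes were chosen with earlier results of these data known. All members, called pathway genes (up to 4 per list and comparison) and 5 fixed genes were eligible to be named. Alternatives covered scaling, low genes, a pseudocount, probe set rules, the replicate number, the samples fitted, variance priors, array weights, thresholds, RNA quality and leaving out each array. Arrays have no read depth, and their number limits the precision.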

Additional observations from a re-analysis of the deposited data

How the results depend on the processing

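Of the 18 member differences under 22 alternatives, 375 values kept their call, 13 lost it, 8 gained it and none that was called changed sign. The difference of Pnpla2 between TNF and CI, not called, was -0.08 when its probe sets were averaged, and that of Abhd5 between Dex and CI, not called, was -0.03. With no minimum difference, 5 members and 20 pathway genes passed for TNF against Dex, while 21 pathway genes passed between TNF and CI and 26 between Dex and CI. With a minimum of 1 the pathway numbers were 0, 3 and 5 in the same order, and 0 members passed for TNF against Dex and 1 for TNF against CI. Leaving out 1 array gave 4 to 5 members between TNF and CI, 3 to 4 between Dex and CI and 2 to 3 between TNF and Dex, and 11 to 14, 13 to 16 and 4 to 9 pathway genes. The share of all genes passing was not counted at these thresholds, with 1 array left out or with the replicate block. These numbers therefore do not set the lists apart from other genes.

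Over all genes, TNF against CI gave 545 higher and 951 lower, but 634 and 724 after quantile normalization and 443 and 1180 with each array centred on its median. Whether the replicate numbers of the titles pair the arrays could not be decided. Deviations of same-numbered arrays correlated from -0.09 to 0.33, and 2 of 7 pairs exceeded 0.1. The deviations of the 2 CI arrays mirror each other by construction, so pairs with CI cannot tell. Between TNF and Dex, same-numbered arrays gave 0.33, -0.09 and 0.21, against -0.38 to 0.28 for the others. With the replicate block 4 members were called between TNF and CI, 4 between Dex and CI, where Pde3b was added (-0.53), and 3 for TNF against Dex. The pathway numbers were then 13, 16 and 6. With 2 or 3 arrays per model, and no measure of background, differences of dim genes are uncertain in size.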
